A study of Mus musculus with 6 samples.

Results

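*Nrp1*, the gene of the receptor neuropilin-1, was followed beside its sister receptor, 4 plexins and 4 semaphorins in thymocytes of 3-week-old mice. The arrays were read by every probe set whose platform annotation names exactly 1 of the 10 genes *Nrp1*, *Nrp2*, *Plxna1*, *Plxnb2*, *Plxnc1*, *Plxnd1*, *Sema4a*, *Sema4b*, *Sema4d* and *Sema7a*. These were 20 of the 22690 probe sets of the arrays, and all 10 genes had at least 1. The 10 genes were chosen because *Nrp1* was already known to have the largest absolute difference between the groups of this same comparison. Their differences are therefore given as a description, and the count of members past the threshold stands only beside the share of all genes past it.

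The 3 arrays labelled SCLtg LMO1tg are described as thymocytes of CD3e-/- mice with SCL under the Sil promoter and LMO1 under the Lck promoter. The 3 arrays labelled control are described as thymocytes of CD3e-/- mice without the transgenes. *Lmo1* and other genes given below are at odds with these labels. All mice were of strain C57BL6 and 3 weeks old, and nothing was added to the mice or cells. Loss of CD3e leaves thymocytes without a working pre-TCR, so that development stops among double negative cells, and the Lck promoter is one used to drive transgenes in thymocytes. The *Cd3e* probe set read 8.41 to 8.72 (log2 units) in the 6 arrays, at percentiles 90.2 to 93.9. Whether it reads the altered part of the gene is not stated, and *Cd3e* is counted among the double negative markers below. Whether each array of a group is a separate animal is not stated. The SD therefore describes only the spread between these samples. Every limma p-value sets a difference against a spread estimated from them, which may not be that between animals.

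Neuropilins are transmembrane receptors with a short cytoplasmic tail. They bind secreted class 3 semaphorins and some forms of vascular endothelial growth factor, and pass the semaphorin signal through plexins, which carry it into the cell. Semaphorins of classes 4 to 7 are mostly held on the cell membrane and bind plexins directly. In the immune system the family is known for effects on cell contact and migration, and in mice *Nrp1* is also used as a surface marker of regulatory T cells that arise in the thymus.

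The labels are at odds with the arrays at *Lmo1*, the cofactor gene carried as a transgene. It stood at 5.01 ± 0.14 in the arrays labelled SCL-LMO1 against 6.75 ± 0.10 in those labelled control (log2 units, SD, n = 3 each). The difference was −1.74 (SE 0.14, limma adjusted p = 8.3e-04). All arrays labelled SCL-LMO1 lay below the filter on low values, so *Lmo1* passed that filter only through the arrays labelled control. No source used here says if this probe set reads the transgene. *Tal1*, which encodes SCL, had 4.55, 4.63 and 4.71 in the arrays labelled SCL-LMO1, against 4.35, 4.27 and 4.44 in those labelled control, below the filter on low values. The groups are therefore named by their labels throughout, and every difference is labelled SCL-LMO1 minus labelled control. The direction of *Nrp1* below is opposite to the one in the study's own gene list. *Ptcra* and *Slc4a1*, given among the markers below, also went opposite to what the paper reports. Whether the labels are turned was not tested. The arrays also fell into a pair of sets by the signal of 9 bacterial hybridization control probe sets, whose means were 8.64 to 9.19 in the low set, SCL-LMO1 replicates 2 and 3 with control replicate 1. In the high set, SCL-LMO1 replicate 1 with control replicates 2 and 3, they were 10.24 to 10.45. Values within each set are given for the members described below.

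*Nrp1* was higher in every array labelled SCL-LMO1 than in any array labelled control, at each of its 3 probe sets. At 1418084_at, the probe set with the highest mean, arrays labelled SCL-LMO1 read 8.04, 7.92 and 7.80, against 5.26, 5.51 and 5.26 in those labelled control, on the log2 scale of RMA expression (robust multi-array average). The gap between the groups was many times the spread within either of them. The means were 7.92 ± 0.12 and 5.34 ± 0.14 (SD, n = 3 each), a difference of 2.58 (SE 0.15), or 5.98-fold. No other gene of the 8693 kept had a larger absolute difference, which is what chose *Nrp1*. The arrays labelled control lay above the filter on low values, the 40th percentile of an array, which was 5.05 to 5.24, and the lowest of them was at percentile 40.4.

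The other probe sets of *Nrp1* gave the same order of groups at lower readings. The probe set 1448943_at read 7.11, 7.19 and 7.50 in the arrays labelled SCL-LMO1, against 5.16, 5.06 and 5.03 in those labelled control, a difference of 2.19 (SE 0.15). It was under the 40th percentile of its array in 2 of the 6 arrays, both labelled control. The third, 1448944_at, stayed below that percentile in all 6 arrays, with 4.20, 4.60 and 4.55 against 3.81, 3.95 and 4.002, a difference of 0.53 that was 0.76 within the low and 0.22 within the high hybridization set. Across the 6 arrays the first probe set correlated with the others at r = 0.984 and 0.868, which describes arrays that fall into 2 groups.

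**Figure D1:**
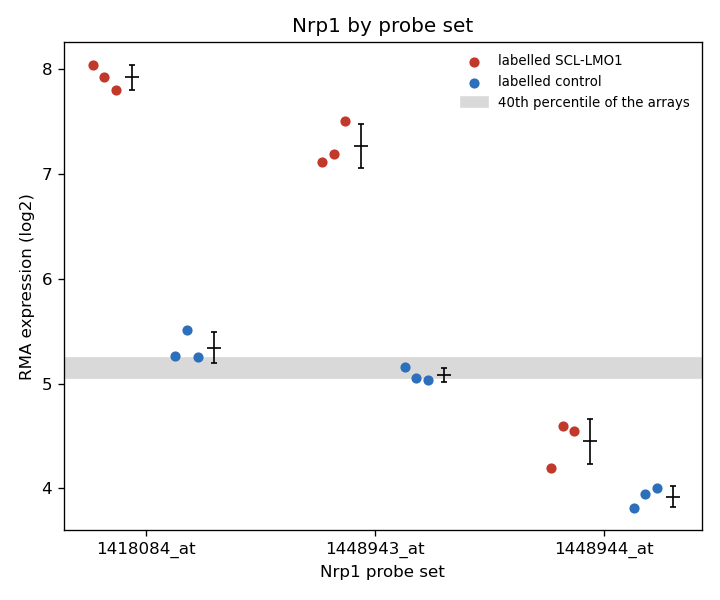
RMA expression (log2, y axis) of the 3 *Nrp1* probe sets (x axis) in each array, with red points for the label SCL-LMO1, blue points for the label control, black bars showing mean and SD (n = 3) and a grey band for the 40th percentile of the arrays (5.05 to 5.24). The red points lie above the blue ones at each probe set, by 2.58, 2.19 and 0.53 on average.

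The size of the *Nrp1* difference at its first probe set varied little with the arrays used. Within the low hybridization set it was 2.60 and within the high set 2.66, and with 1 array left out it ranged from 2.52 to 2.66. The mean of its 2 probe sets above the filter differed by 2.38. *Nrp1* was chosen on these same arrays, so the small change in size is no sign of stability. In bulk samples a change in the share of cells that express a gene cannot be told apart from a change in its RNA per cell, and this holds for *Nrp1* and for every gene below.

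*Nrp2*, which encodes the sister receptor and prefers other class 3 semaphorins, did not move with *Nrp1*. It read 6.50, 6.43 and 6.28 in the arrays labelled SCL-LMO1, against 6.39, 6.64 and 6.74 in those labelled control. The groups overlapped, and the difference of −0.19 (SE 0.15) was −0.03 within the low and −0.19 within the high hybridization set. Over the 6 arrays *Nrp2* correlated with *Nrp1* at r = −0.568 and with the plexin gene *Plxnb2* at 0.933, the highest r of any pair of members. *Nrp2* and *Plxnb2* were both lowest in SCL-LMO1 replicate 3 and highest in control replicate 3. These arrays also had the lowest and the highest array median, 5.57 and 5.70, and the part of this in the correlation was not tested.

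The stretch just before the start of each neuropilin gene is shown as a description. The complex that SCL and LMO1 form is known to be drawn to E-boxes (CANNTG) and GATA motifs. Binding was not measured in these arrays, and its part in the *Nrp1* difference was not tested. The 250 bases before the start, from RefSeq on build GRCm38.p6, are printed 5′ to 3′ on the strand of the gene, with GC boxes (GGGCGG on either strand) in capitals. The *Nrp1* stretch is chr8:128358823-128359072 and the *Nrp2* stretch chr1:62703067-62703316, both on the plus strand.
*Nrp1*: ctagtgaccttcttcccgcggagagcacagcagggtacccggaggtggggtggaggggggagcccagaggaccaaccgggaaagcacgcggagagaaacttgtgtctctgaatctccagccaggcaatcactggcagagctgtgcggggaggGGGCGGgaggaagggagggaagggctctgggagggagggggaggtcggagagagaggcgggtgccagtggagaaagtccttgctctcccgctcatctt
*Nrp2*: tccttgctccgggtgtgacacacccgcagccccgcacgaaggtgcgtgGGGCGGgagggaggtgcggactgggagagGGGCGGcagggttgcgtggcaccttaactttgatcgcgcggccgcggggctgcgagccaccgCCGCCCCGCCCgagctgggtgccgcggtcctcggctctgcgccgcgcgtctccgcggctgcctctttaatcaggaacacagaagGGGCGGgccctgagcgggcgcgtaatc
The motifs CANNTG and GATAA, searched on both strands, have 0 matches in either window. Of all 32851 promoter windows of this length 66.2% held CANNTG, 22.6% held GATAA and 32.7% held GGGCGG. *Nrp1* had 1 GC box and *Nrp2* had 5, of which 1 pair overlaps. For 9 of the 10 genes there were 16 such windows in all. CANNTG was in 7 of them, GATAA in 2 and GGGCGG in 13. The variant CAGATG, which also counts as CANNTG, was in 1, against 14.4% of all windows. No match says only that these letters are not in this window.

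The plexins, the receptors that carry the semaphorin signal into the cell, differed by at most 0.22 on the log2 scale in either direction at the probe set with the highest mean. *Plxna1*, which encodes a partner of neuropilin-1 in binding class 3 semaphorins, read 5.32, 5.21 and 5.23 in the arrays labelled SCL-LMO1, against 4.86, 5.02 and 5.43 in those labelled control, a difference of 0.15 (SE 0.17). The groups overlapped, because control replicate 3 lay above all other arrays, and without control replicate 1 the difference was 0.03. It was 0.36 within the low and 0.10 within the high hybridization set. *Plxna1* was at or above the 40th percentile in 4 of the 6 arrays.

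*Plxnb2*, which encodes a receptor of class 4 semaphorins, had 5.75, 5.69 and 5.56 in the arrays labelled SCL-LMO1, against 5.75, 5.83 and 6.07 in those labelled control. The highest array of the first group and the lowest of the second read the same to 2 decimals, so the lack of overlap rests on a margin below that. The difference was −0.22 (SE 0.15), and it was −0.28 without control replicate 1 but −0.12 once control replicate 3 was left out. Within the low hybridization set it was −0.12 and within the high set −0.20.

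*Plxnc1* encodes the receptor of semaphorin 7A and was read by 4 probe sets that did not go one way. The highest, 1450905_at, had 5.81, 5.62 and 6.07 in the arrays labelled SCL-LMO1 against 5.74, 5.63 and 5.66 in those labelled control, a difference of 0.16 (SE 0.16). SCL-LMO1 replicate 3 stood highest, and without it the difference was 0.04. The low hybridization set gave 0.11 and the high set 0.17. The probe set 1423213_at differed by 0.04 (SE 0.17). The remaining pair lay below the filter, and of these 1450906_at differed by −0.31 with no overlap between the groups while 1423214_at differed by −0.00074.

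*Plxnd1* encodes a receptor of semaphorin 3E that acts in the migration of mouse thymocytes after the double negative stage. It read 6.01, 5.96 and 5.94 in the arrays labelled SCL-LMO1, against 5.99, 5.64 and 6.09 in those labelled control. The first group lay close together inside the range of the second. The difference of 0.06 (SE 0.16) turned to −0.07 when control replicate 2 was left out, and it was −0.04 within the low but 0.14 within the high hybridization set.

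Of the semaphorins, *Sema4d* and *Sema7a* had the largest differences at the probe set with the highest mean, both under 0.3. *Sema4d* encodes CD100, a membrane semaphorin of T cells that binds B plexins and CD72. It read 8.81, 9.16 and 9.14 in the arrays labelled SCL-LMO1, against 9.15, 9.33 and 9.37 in those labelled control, a difference of −0.24 (SE 0.15). SCL-LMO1 replicate 1 was the lowest array. Within the high hybridization set, which holds that array, the difference was −0.54, and within the low set it was 0.01. The other *Sema4d* probe sets differed by −0.32 (SE 0.21) at 1420823_at and by −0.17 at 1434596_at, which lay below the filter.

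*Sema7a*, whose product is anchored to the membrane by a lipid and binds plexin C1 and an integrin, read 6.12, 5.76 and 5.80 in the arrays labelled SCL-LMO1, against 5.57, 5.55 and 5.73 in those labelled control. The groups did not overlap, by a margin smaller than the spread within each. The difference was 0.28 (SE 0.15), and 0.16 without SCL-LMO1 replicate 1. It was 0.21 within the low and 0.48 within the high hybridization set. Its other probe set, 1422040_at, lay below the filter and went the other way without overlap, with a difference of −0.21.

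*Sema4a*, a membrane semaphorin of dendritic and T cells, and *Sema4b*, of the same class, had the widest spread within the controls. *Sema4a* read 7.42, 7.94 and 7.65 in the arrays labelled SCL-LMO1, against 7.75, 8.26 and 6.96 in those labelled control. Control replicate 2 was the highest and control replicate 3 the lowest of all 6 arrays. The mean difference of 0.01 (SE 0.29) was −0.34 without control replicate 3 and 0.32 without control replicate 2. Within the low hybridization set it was 0.04 and within the high set −0.19. The probe set 1438934_x_at of *Sema4a* did not show this spread, with 7.48, 7.31 and 7.48 in the arrays labelled control, and differed by 0.15 (SE 0.15). *Sema4b* read 8.17, 7.84 and 8.04 in the arrays labelled SCL-LMO1, against 8.27, 8.58 and 7.76 in those labelled control, with the same control arrays at the extremes. Its difference of −0.19 (SE 0.21) was 0.003 without control replicate 2 and −0.41 without control replicate 3. It was −0.32 within the low and −0.01 within the high hybridization set. The other *Sema4b* probe set, 1427586_at, lay below the filter and differed by −0.02.

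**Figure D2:**
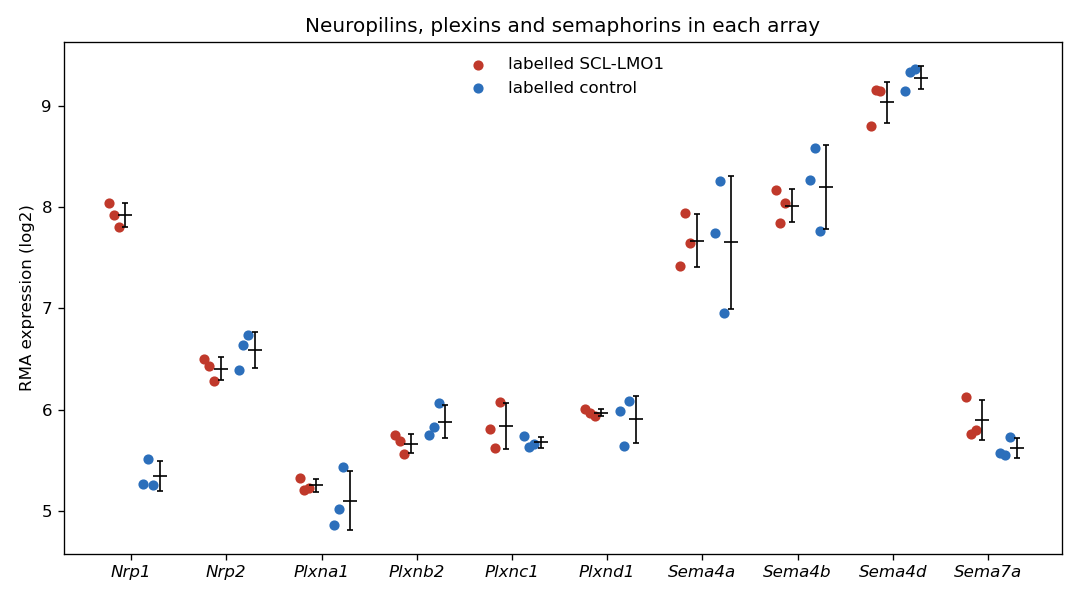
RMA expression (log2, y axis) of the 10 genes (x axis) in each array, each gene at its probe set with the highest mean, with red points for the label SCL-LMO1, blue points for the label control and black bars showing mean and SD (n = 3). *Nrp1* separates the groups, at means of 7.92 and 5.34, while the other 9 genes differ by at most 0.28 and *Sema4a* spreads from 6.96 to 8.26 among the controls.

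As a group, 6 of the 10 genes had a higher mean in the arrays labelled SCL-LMO1 and 4 a lower one. All 10 passed the filter on low values, which 14 of their 20 probe sets did. The median difference was 0.04, or 0.01 without *Nrp1*, beside −0.01 over all 8693 genes kept. When the arrays were quantile normalized once more, *Sema4a* turned and the count was 5 and 5. By limma at a Benjamini-Hochberg adjusted p under 0.05 over all genes, 1 of the 10 was called, *Nrp1*, beside 0.161% of all genes. The groups did not overlap in 2 members that were higher, *Nrp1* and *Sema7a*, beside 7.32% of all genes, and in 1 that was lower, *Plxnb2*, beside 6.37%. The members were chosen on this comparison, so nothing is read from these counts.

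**Figure D3:**
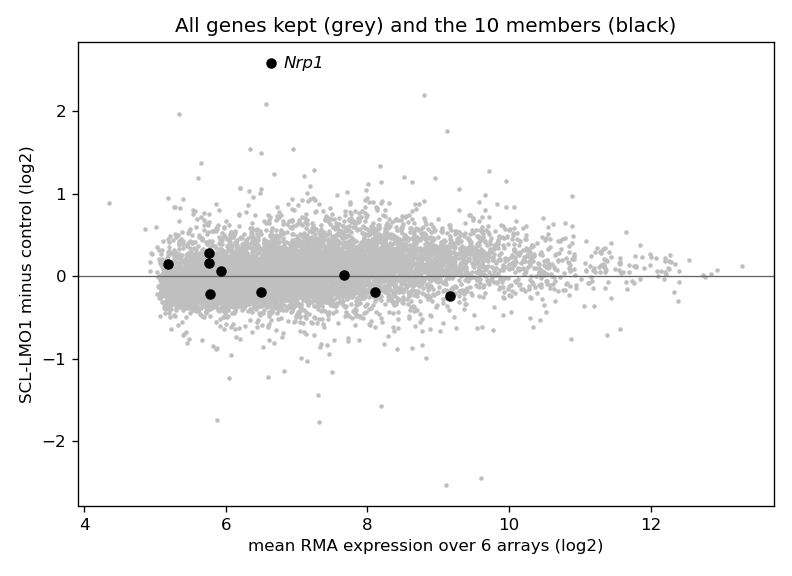
Difference (log2, y axis; labelled SCL-LMO1 minus labelled control) against mean RMA expression over the 6 arrays (log2, x axis) for the 8693 genes kept, with the 10 members in black and the other genes in grey. *Nrp1* has the largest absolute difference of all genes, 2.58 as labelled and of the opposite sign with the labels turned, and the other 9 members lie between −0.24 and 0.28 within the cloud.

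Apart from *Nrp1*, the mean level of the members was highest in the arrays of the high hybridization set, whatever their label. The mean of their 17 other probe sets was 5.853, 5.786 and 5.796 in the arrays labelled SCL-LMO1, against 5.795, 5.899 and 5.919 in those labelled control. The 3 arrays of the high set also had the highest array medians, 5.66 to 5.70 against 5.57 to 5.61 in the low set. Of the 17 probe sets, 7 had a higher and 10 a lower mean in the arrays labelled SCL-LMO1, with a median difference of −0.02. The part of the hybridization sets in these differences was not tested.

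**Figure D4:**
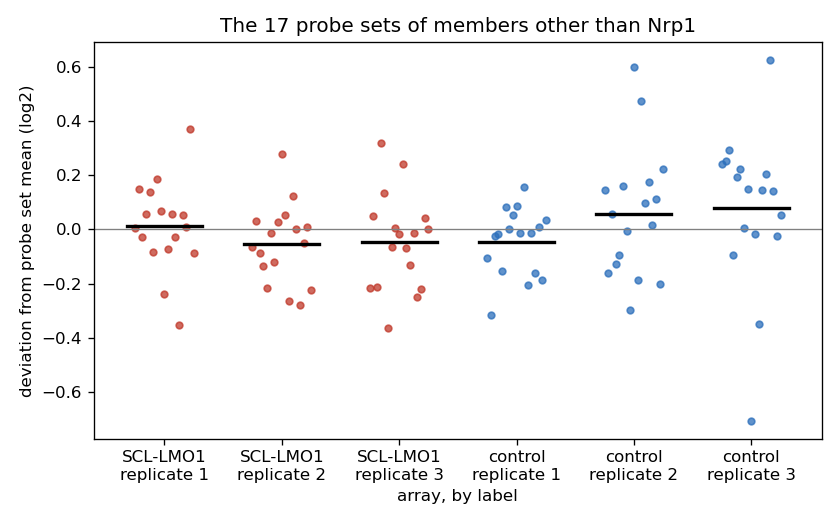
Deviation of each of the 17 probe sets of members other than *Nrp1* from its own mean over the 6 arrays (log2, y axis) in each array (x axis), with red points for the label SCL-LMO1, blue points for the label control and a black line for the mean of the 17. The mean is highest in SCL-LMO1 replicate 1 with control replicates 2 and 3, and the widest points, of *Sema4a* and *Sema4d*, lie in control replicate 3.

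No gene of the rest of the plexin and semaphorin family passed the test. Of 21 other family genes 16 had a probe set and 10 were kept. Of these, 0 passed limma at an adjusted p under 0.05 and 0 at an unadjusted p under 0.05 (9.44% of all genes did). Rank products, the kind of test the study's methods name, called 0. Of the 10, 8 had a lower and 2 a higher mean in the arrays labelled SCL-LMO1, with a median of −0.16 beside −0.01 over all genes, and with arrays centred on their medians the counts were 7 and 3. With the hybridization set as a block the median was −0.07, beside 0.001 over all genes. *Sema6c*, a membrane semaphorin gene, read 8.17, 7.997 and 7.88 in the arrays labelled SCL-LMO1, against 7.97, 8.48 and 8.40 in those labelled control, a difference of −0.27 (SE 0.17, limma adjusted p = 0.630). *Sema4g* and *Sema6a* also differed by −0.27 each (limma adjusted p = 0.614 and 0.601). Without control replicate 3 *Sema4g* differed by −0.12, without SCL-LMO1 replicate 3 *Sema6a* differed by −0.16, and *Sema6c* was −0.17 without control replicate 2 and −0.43 without control replicate 1. At the mean of the probe sets kept *Sema6a* differed by −0.10 and *Sema6c* by −0.15. The class 3 ligands of the neuropilins were low or overlapping: *Sema3a*, *Sema3c* and *Sema3e* lay below the filter, *Sema3b* differed by 0.06 and *Sema3f* by −0.17 (SE 0.13 and 0.16). The other plexins kept, *Plxna3* and *Plxnb3*, differed by −0.14 and −0.20 (SE 0.16 and 0.15).

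**Figure D5:**
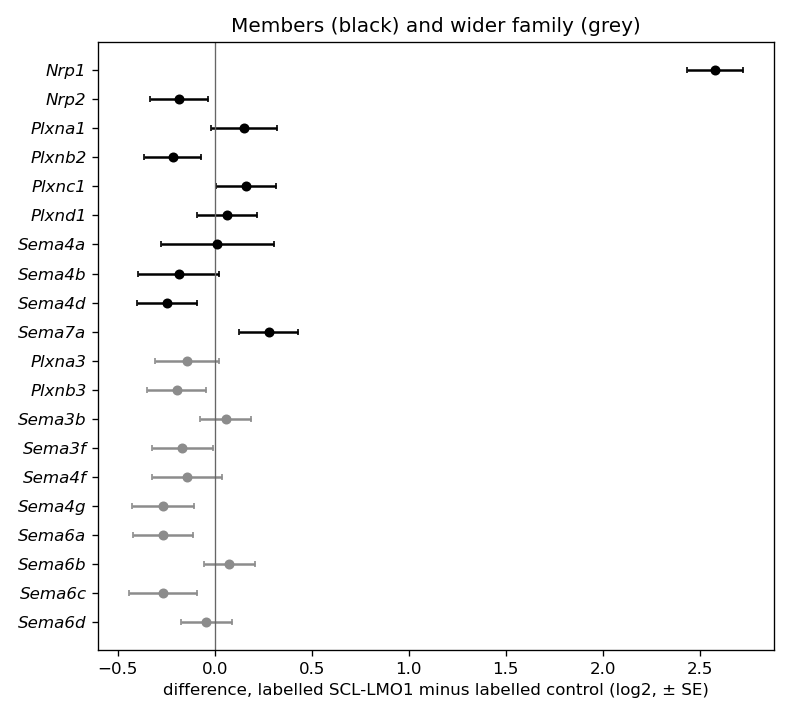
Difference between the arrays labelled SCL-LMO1 and those labelled control (log2, x axis, points with SE bars) for the 10 members in black and the 10 other family genes kept in grey (y axis). *Nrp1* stands apart at 2.58, and the other genes lie between −0.27 and 0.28.

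Among the other ligands and coreceptors that neuropilins, plexins and semaphorins are known to bind, *Tgfbr1*, which encodes the type I receptor of TGF-β, differed most. It read 8.04, 8.60 and 8.78 in the arrays labelled SCL-LMO1, against 7.91, 7.63 and 7.04 in those labelled control, with no overlap. The difference of 0.95 (SE 0.25) did not pass limma over all genes (adjusted p = 0.259), but *Tgfbr1* was called higher by rank products under 0.1, as 1% of all genes were in either direction, and by limma with array weights (adjusted p = 0.0161), which called 6.29% of all genes. Its adjusted p ranged from 0.0161 to 0.959 over the alternatives, and at the lower rank products threshold, 0.01, 0 genes of this list were called. Of 24 listed genes 17 were kept and 0 passed the limma test, with 1 at an unadjusted p under 0.05, beside 9.44% of all genes. The ligand gene *Tgfb1* differed by −0.35 (SE 0.17) and *Timd2*, a receptor of semaphorin 4A in mice, by −0.20 (SE 0.18). Without control replicate 3 these were −0.22 and −0.04. The VEGF ligand and receptor genes *Vegfa*, *Vegfb*, *Kdr*, *Flt1* and *Flt4* lay between −0.15 and −0.02. The list had 13 lower and 4 higher means, with a median of −0.08, and 10 and 7 with arrays centred on their medians.

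The genes that act inside the cell behind these receptors had 11 higher and 9 lower means among the 20 kept of 30, with a median of 0.03, and 8 and 12 after quantile normalization. By limma 0 passed at an adjusted p under 0.05, and 0 were called by rank products. An unadjusted limma p under 0.05 was found for 2, beside 9.44% of all genes. These were *Fyn*, which encodes a Src family kinase, with a difference of 0.79 (SE 0.33, limma adjusted p = 0.499), and *Rras2*, which encodes a small GTPase related to R-Ras, with 0.55 (SE 0.23, limma adjusted p = 0.510). *Fyn* read 7.86, 8.26 and 8.12 in the arrays labelled SCL-LMO1, against 7.62, 7.85 and 6.40 in those labelled control, so that control replicate 3 stood apart, and without it the difference was 0.35. *Rras2* passed with array weights (adjusted p = 0.0449), but its adjusted p reached 1 over the alternatives, and its difference was 0.32 without control replicate 3 and 0.36 with the hybridization set as a block. *Mical1*, which encodes an enzyme that oxidizes actin behind plexins, differed by −0.29 (SE 0.22), and *Gipc1*, the gene of the adaptor that binds the tail of neuropilin-1, by 0.01 (SE 0.20). *Mical1* was at −0.55 without control replicate 2, −0.15 without control replicate 3, −0.16 without control replicate 1 and −0.03 with array weights.

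The genes whose pattern over the 6 arrays was most like that of *Nrp1* were found by Pearson's r, as a description, since any gene that parts the groups is like *Nrp1* by construction. Of the 8692 other genes 91 had an r above 0.9 and 102 below −0.9. The 5 highest were *Slc5a9*, a sugar transporter gene (0.989), *Pold2*, of DNA polymerase delta (0.984), *Eipr1* (0.983), *Rrm1*, of ribonucleotide reductase (0.982), and *Nudt1*, whose product clears oxidized nucleotides (0.981). The 5 lowest were *Zranb1*, of a deubiquitinase (−0.998), the thrombin receptor gene *F2r* (−0.997), the carboxypeptidase gene *Cpa3* (−0.993), *Gstp1*, of glutathione conjugation (−0.990), and *Sytl2*, of vesicle transport (−0.989). The sizes of their differences were not alike, with −2.53 for *Cpa3* and −2.45 for *F2r* but −0.16 for *Gstp1* and 0.20 for *Eipr1*.

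Markers of the cells that could carry *Nrp1* were read in the same arrays. All 10 double negative thymocyte markers with a probe set were kept, and their summed linear level was 16023 to 19097 in the arrays labelled SCL-LMO1 against 14128 to 16466 in those labelled control. *Ptcra*, of the pre-TCR, was called higher, by 1.28 (SE 0.16, limma adjusted p = 0.0127), a direction that rests on the labels as that of *Nrp1* does. The paper reports that SCL inhibited *Ptcra*, which it calls a target of E proteins, in a double negative cell line. It also reports that both transgenes together inhibited genes targeted by E proteins in purified double negative (DN3) thymocytes. Both reports are opposite to the direction by label. The recombinase genes *Rag1* and *Rag2* also did not overlap between the groups, as 7.32% of all genes did not with a higher mean. Their differences of 0.97 (SE 0.22) and 0.82 (SE 0.22) did not pass limma (adjusted p = 0.184 and 0.266). Rank products under 0.1 called *Rag1* beside *Ptcra*, as 1% of all genes were in either direction. Of the double positive markers *Cd8a* and *Cd8b1* lay below the filter, and the 1 gene kept was not called. *Foxp3* and *Ikzf2*, of the regulatory T cell markers, also lay below the filter. That list's summed linear level was 792 to 850 in the arrays labelled SCL-LMO1 and 796 to 965 in those labelled control. In 0 of the 5 regulatory T cell, 8 dendritic cell, 7 macrophage and 5 endothelial markers kept did limma find a difference at an adjusted p under 0.05. Rank products called 0, and 1, *Pecam1*, had an unadjusted limma p under 0.05, beside 9.44% of all genes. The endothelial genes *Cdh5*, *Tek*, *Tie1*, *Emcn* and *Vwf* were below the filter. Summed levels overlapped between the labels. For dendritic cells they were 1455 to 1923 against 1701 to 1910, and for macrophages 857 to 1141 against 891 to 982. For endothelium they were 358 to 443 against 419 to 496. All 5 endothelial genes kept had a lower mean in the arrays labelled SCL-LMO1. Of these 2 did not overlap, beside 6.37% of all genes. With arrays centred on their medians 4 were lower and 1 higher.

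Of the neutrophil markers, 0 of the 11 kept passed limma, but most had a higher mean in the arrays labelled SCL-LMO1. Higher means were found in 8, of which 7 did not overlap, beside 7.32% of all genes, while *Elane*, *Csf3r* and *Mmp8* had lower means, and the summed level was 1544 to 3429 in the arrays labelled SCL-LMO1 against 677 to 1200 in those labelled control. *S100a8*, of a subunit of calprotectin, differed by 2.09 (SE 0.34, limma adjusted p = 0.0598), and 7 of the 11 had an unadjusted p under 0.05, beside 9.44% of all genes. Of these 11 genes rank products under 0.1 called 7 higher, beside 1% of all genes in either direction. Thymic epithelial markers summed to 968 to 1102 in the arrays labelled SCL-LMO1 against 671 to 865 in those labelled control, and fibroblast markers to 300 to 321 against 446 to 546. The sums are over linear values, so the highest genes weigh most. Of the epithelial genes 3 had a higher and 2 a lower mean, and *Epcam* differed most, by 0.57 (SE 0.23). Of the fibroblast genes *Pdgfrb* differed by −1.16 (SE 0.21), while the others kept lay between −0.20 and −0.15. Limma called 0 of the 5 epithelial and 0 of the 4 fibroblast genes, with 1 of each at an unadjusted p under 0.05, and rank products called the fibroblast gene *Pdgfrb* lower. B cell markers summed to 260 to 276 against 267 to 395, and erythroid markers to 499 to 1084 against 350 to 525. Limma called 0 of the 3 B cell and 0 of the 2 erythroid genes, with 2 and 1 at an unadjusted p under 0.05, and rank products called *Ms4a1* lower and *Slc4a1* higher. The paper names *Slc4a1* among its down-regulated genes, the opposite direction. Beside the epithelial, fibroblast, B cell and erythroid counts stand 9.44% of all genes at an unadjusted p under 0.05 and 1% by rank products. Limma with array weights called 3 neutrophil, 3 double negative and 2 B cell markers. It called 1 each of the endothelial, epithelial and fibroblast markers and 0 in the other marker lists. Beside these counts stand 6.29% of all genes. The part of these cell types in the *Nrp1* difference was not tested.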

How the data were processed

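RNA of thymocytes from CD3e-/- samples, 3 labelled SCLtg LMO1tg and 3 labelled control, was hybridized to Affymetrix mouse arrays. The authors deposited log2 expression values made by RMA (robust multi-array average), and the submitters' processing notes also name affy and MAS5, while versions are not given in the sources used here. Values ran from 2.36 to 14.12 on all 22690 probe sets. Precision is limited by the number of arrays. Of the probe sets, 20393 had 1 annotated gene, 691 several and 1606 none, and only those with 1 gene were named. Probe sets at or above the 40th percentile of at least 3 of 6 arrays were kept (13776), and the highest mean chose the probe set of each of the 8693 genes. Tests used limma 3.58.1 under R 4.3.3 (two-sided, Benjamini-Hochberg over all genes kept). Rank products over 100 permutations served as the methods' test (under 0.1, and under 0.01 as the study's list is headed). Both were also run on simulated data. The simulated arrays were independent and held no hybridization sets, so nothing is read from that run here. The members, gene lists and the genes named were chosen with earlier results of these data known. The text names the members, in each gene list the genes passing limma or else the 3 with the largest absolute difference, the 5 highest and 5 lowest r with *Nrp1*, and in marker lists the genes passing limma and up to 2 others. *Sema3b*, *Sema3f*, *Plxna3*, *Plxnb3*, the VEGF genes, *Gipc1*, *Rag2*, *Elane*, *Csf3r*, *Mmp8* and genes named as below the filter or called by rank products fall outside this rule and were named after their values were seen.

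Motifs were searched with Python 3.11.15 in RefSeq promoter windows, which were given for 9 of the 10 genes, all but *Plxna1*. Alternatives changed the filter, the scaling, the variance model, array weights, blocks, the probe set rule, the test and the arrays used.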

Additional observations from a re-analysis of the deposited data

How the results depend on the processing

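*Nrp1* was the 1 member called in all 15 alternative fits and by rank products, which its choice on this comparison leads to and which is no sign of stability. The sign of the difference turned under 5 alternatives for *Sema4a*, and under 1 each, without control replicate 2, for *Plxnd1* and *Sema4b*. The number of all genes called, 14, was 31 after quantile normalization, 547 with array weights, 28 with a block for the hybridization sets, 33 at an adjusted p under 0.1 and 87 by rank products under 0.1 (21 under 0.01), and with 1 array left out it lay between 7 (control replicate 2) and 27 (control replicate 1). With the replicate number as a block it was 9. The numbers were not taken as pairs, since the deviations of same-numbered arrays correlated at −0.64, 0.01 and −0.38. Among the other ligands and coreceptors 1 gene was called with array weights and 1 by rank products under 0.1, and among the cytoplasmic effectors 1 was called with array weights, against 0 otherwise. Of the 10 genes most and least like *Nrp1*, 2 stayed after quantile normalization and 2 to 8 with 1 array left out. The *Cd3e* difference of 0.0664 turned to −0.0771 after quantile normalization. Centring arrays on their medians moved the median of all genes by 0.048. The cause of these changes was not tested.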
